A study of Mus musculus with 3 samples.

Results

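The Tnfsf4, Tnfsf18 and Fasl locus was examined as a 600 kb window of mouse chromosome 1, chr1:163200001-163800000 in build mm9. A called peak or a shared region was counted as a member if its centre lay in this window. The window was chosen by a rule written with the peak positions known, so the number and crowding of peaks are given as a description, with no test. It held 12 of the 6777 peaks of replicate 1, 35 of the 37307 peaks of replicate 2 and 13 of the 8862 peaks of replicate 3. Of the 9800 regions covered by peaks of at least 2 replicates, 15 lay in it.

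The data are chromatin immunoprecipitation sequencing (ChIP-seq) peaks of NUR77 from 1 group of 3 replicates. RAW264.7 cells, an established mouse macrophage line, carried the construct pINDUCER20b-HA-NUR77, from which HA-tagged NUR77 is made when doxycycline is added. All 3 replicates received 1 µg/mL doxycycline for 18 hours, were grown in 6 dishes each and were precipitated with an antibody to the HA tag. The tagged protein is overexpressed, and the labels do not say whether the stable line is 1 clone or whether the replicates came from separate days. No uninduced cells, untagged cells or input library were analysed here, so a called peak is not shown here to depend on NUR77. The data hold no expression values, so the macrophage label could not be checked against marker genes.

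NUR77 is an orphan nuclear receptor of the NR4A family that is induced early when macrophages meet inflammatory signals. It can bind DNA as a monomer at an element called the NBRE, written AAAGGTCA. Tnfsf4 encodes OX40 ligand and Tnfsf18 encodes GITR ligand, both members of the tumour necrosis factor (TNF) superfamily that antigen-presenting cells show to T cells. The OX40 and GITR receptors on T cells give co-stimulatory signals when they meet these ligands. Fasl encodes Fas ligand, a TNF family member known from cytotoxic T cells and natural killer cells, which triggers apoptosis in cells that carry the receptor Fas.

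In the RefSeq annotation of build GRCm38.p6 the protein-coding genes Prdx6, Tnfsf4, Tnfsf18 and Fasl follow each other in this order on chromosome 1. That annotation is of another build than the peaks, and no annotation of mm9 was used, so no region below is assigned to a gene, promoter, exon or intron. The promoter table at hand held Tnfsf18 and Fasl. The 250 bases before the start of each are shown because they are the stretches in which the NUR77 element was searched, and their GRCm38.p6 positions cannot be set beside the mm9 positions of the peaks. Tnfsf18 lies on the plus strand (chr1:161494407-161494656) and Fasl on the minus strand (chr1:161788496-161788745), both written 5′ to 3′.
Tnfsf18 promoter: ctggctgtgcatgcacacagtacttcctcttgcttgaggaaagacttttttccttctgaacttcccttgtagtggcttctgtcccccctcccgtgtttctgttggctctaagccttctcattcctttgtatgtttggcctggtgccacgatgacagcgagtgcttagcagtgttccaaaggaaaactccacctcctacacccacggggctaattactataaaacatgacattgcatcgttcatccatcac
Fasl promoter: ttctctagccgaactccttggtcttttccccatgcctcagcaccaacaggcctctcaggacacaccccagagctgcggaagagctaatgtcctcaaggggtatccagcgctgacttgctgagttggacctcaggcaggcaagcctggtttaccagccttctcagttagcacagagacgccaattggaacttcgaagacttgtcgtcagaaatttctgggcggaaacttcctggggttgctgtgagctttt
Neither stretch held AAAGGTCA on either strand, which 1.34% of 32851 RefSeq promoters of this length did. Neither held its last 6 letters, AGGTCA, alone on either strand, which 14.0% of them did. The searched stretches are short, and the sequence under the peaks was not read.

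The locus was dense in called peaks in every replicate. Peaks numbered 20.0 per Mb in the window against 2.55 per Mb in the rest of the nuclear genome in replicate 1. In replicate 2 they numbered 58.3 per Mb against 14.0 per Mb, and in replicate 3 they numbered 21.7 per Mb against 3.33 per Mb. The density was thus 7.85, 4.15 and 6.50 times that of the rest in replicates 1, 2 and 3, a mean of 6.17 ± 1.87 (SD, n = 3). Against the rest of chromosome 1 alone the mean was 5.37. The excess of replicate 2 over replicate 1 in peak number was 2.92-fold in the window, against 5.50-fold over the whole lists.

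Regions of at least 2 replicates numbered 25.0 per Mb in the window and 3.69 per Mb over the nuclear genome. The genome was divided into 4414 windows of 600 kb, of which the locus is 1. With 15 regions it held more than 99.2% of them. There were 23 windows with more regions, 11 others with as many and 2019 with none, and the mean was 2.21. For peaks of single lists, 22 windows held more in replicate 1, 53 in replicate 2 and 39 in replicate 3. These counts include any windows of assembly gaps or sequence to which reads cannot be mapped.

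**Figure D1:**
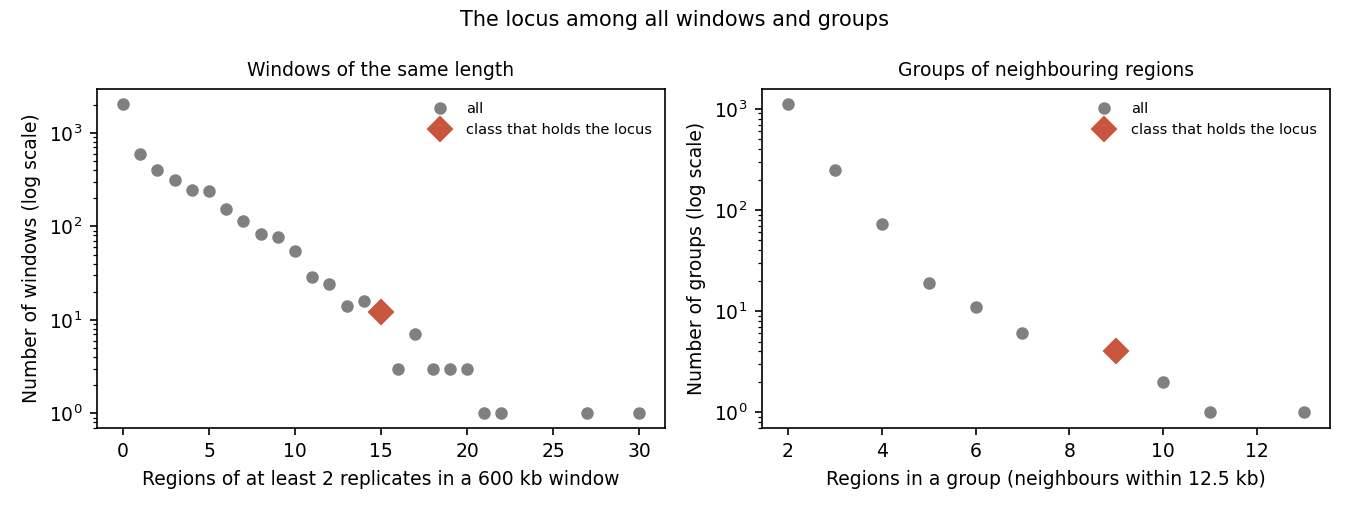
Left, the number of 600 kb windows of the genome (log scale) by the number of regions of at least 2 replicates they held; right, the number of groups of neighbouring regions (log scale) by the number of regions in the group, with neighbours at most 12.5 kb apart. Diamonds mark the windows with 15 regions and the groups with 9, to which the locus belongs, and both lie in the sparse right-hand tail.

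Of the 15 regions, 8 had a stretch covered by all 3 replicates, or 53.3% (95% Wilson interval 30.1 to 75.2, for counting error only), against 47.8% of all 9800. Another 4 regions held replicates 2 and 3, or 26.7% against 34.8% of all regions, and 3 held replicates 1 and 2, or 20.0% against 15.7%. No region held replicates 1 and 3 without replicate 2, a kind that made up 1.77% of all regions. All 15 thus included replicate 2, near the 98.2% of all regions that did. Region widths ran from 100 to 531 bp with a median of 369 bp, against a median of 350 bp over all regions. In the 31 pairs of overlapping peaks the centres lay a median of 51 bp apart and at most 145 bp apart, against a median of 43 bp over the whole lists.

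Among single peaks, 11 of 12 in replicate 1 overlapped a peak of another list, or 91.7% (64.6 to 98.5), against 94.3% of that list. In replicate 3, 12 of 13 did, or 92.3% (66.7 to 98.6), against 93.2% of its list. Both shares are near those of the whole lists. In replicate 2, 15 of 35 did, or 42.9% (28.0 to 59.1), against 25.7% of its list. Peaks that overlapped both other lists made up 66.7%, 22.9% and 61.5% of the window's peaks in replicates 1, 2 and 3, against 69.1%, 12.7% and 52.8% of the whole lists. The window was chosen with the shared regions known, so the higher share in replicate 2 is a description.

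By the rank of their scores, the peaks of the locus lay near the middle of their lists in replicates 1 and 3. A score is the authors' own value for a peak on a scale that is not stated, so it is given as a percentile, the share of peaks in the same list that scored lower, with ties counted by their middle. The window's peaks had median percentiles of 43.9, 63.8 and 46.9 in replicates 1, 2 and 3, which average 51.5 ± 10.7 (SD, n = 3). Above the median of their own list lay 5 of 12, 23 of 35 and 6 of 13 peaks, against 50% of each list. Replicates 1 and 3 had 0 window peaks in the best-scored 10% of their lists, and replicate 2 had 5 of 35. Peaks of the window that overlapped another list had median percentiles of 49.9, 81.9 and 49.5, against 51.3, 83.4 and 51.4 for such peaks in the whole lists of replicates 1, 2 and 3. Shared peaks of the locus thus had median percentiles within 2 points of those of shared peaks in general in each replicate. The unshared peaks of the window had a median percentile of 52.1 in replicate 2 (20 peaks), against 38.8 for unshared peaks of that list. The only unshared peak of replicate 1 was at 17.3 and that of replicate 3 at 1.11, against medians of 26.1 and 30.1 for unshared peaks of those lists.

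**Figure D2:**
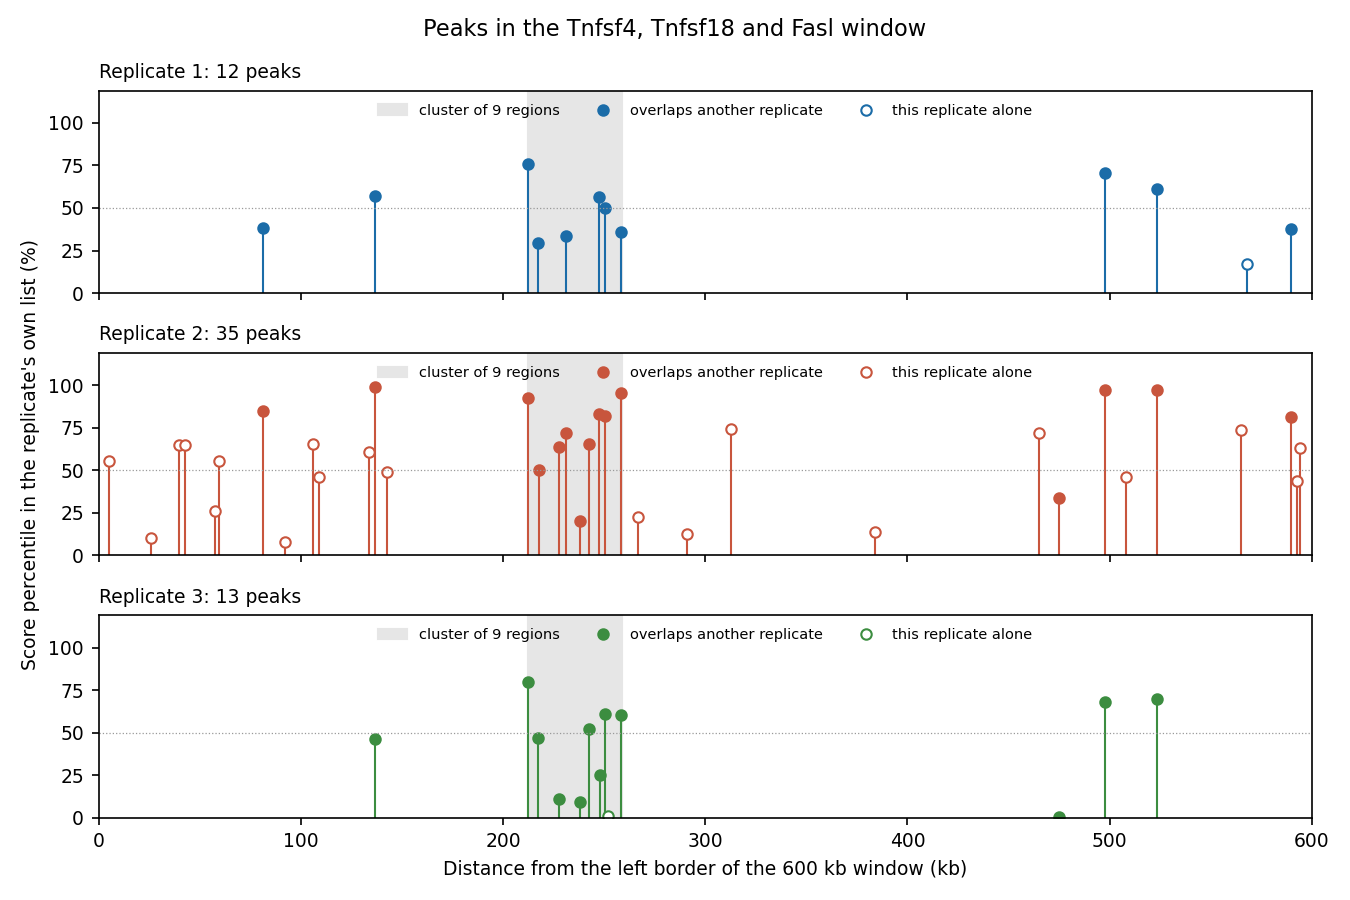
Each stem is a called peak, placed by its distance in kb from the left border of the window; its height is the percentile of its score in the list of its own replicate (0 to 100%, dotted line at the list's median). Filled points overlap a peak of another replicate and open points do not. The grey band is the cluster of 9 regions, where all 9 replicate 2 peaks are filled, while the 20 open replicate 2 peaks lie outside it. The cluster was defined by shared regions, which by itself favours filled points in it.

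A cluster of regions filled a small part of the window. Regions were joined while neighbouring centres lay within 12.5 kb, which put 9 of the 15 regions into 1 group at chr1:163412274-163458654. This is 46.4 kb, or 7.73% of the window's length with 60.0% of its regions. Neighbouring centres in it lay 2.90 to 10.1 kb apart, with a median of 5.06 kb. The other 6 regions were in no group, at 22.4 kb or more from their nearest neighbour. The window thus had 60.0% of its regions in a group, against 36.1% of all regions in a group of 2 or more. Of 1473 such groups in the genome, 44 held 5 or more regions, and only 8, this one included, held 9 or more.

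Of the 9 regions in the cluster of the locus, 5 were of all 3 replicates, against 47.8% of all 9800 regions. The other groups of 9 regions were chr1:85247255-85285073 with 6 such regions, chr5:17322173-17363525 with 3 and chr13:23627020-23689180 with 4. The 4 larger groups held 13, 11, 10 and 10 regions, of which 6, 4, 2 and 2 were of all 3 replicates. The count of the cluster depends on replicates 2 and 3. Regions common to replicates 2 and 3 formed a group of 8 there. Of those common to replicates 1 and 3, 5 lay in the span, with up to 30.2 kb between neighbouring centres, and the largest group was 3. Of those common to replicates 1 and 2, 6 lay in the span, with up to 16.4 kb between neighbouring centres, and the largest group was again 3. With neighbours at most 5 kb apart the largest group was a pair, and at 50 kb it kept 9 regions.

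Outside the cluster the window was still denser than the rest of the genome. Peaks there numbered 6, 26 and 4 in replicates 1, 2 and 3, or 4.25, 3.34 and 2.17 times the density of the rest of the nuclear genome, a mean of 3.25 ± 1.05 (SD, n = 3). Inside the cluster lay 6, 9 and 9 peaks, so replicate 2 had no more peaks there than replicate 3. Outside the cluster 20 of the 26 replicate 2 peaks, or 76.9%, overlapped no other list, near the 74.3% of the whole list. In the cluster all 9 overlapped another list, but it was defined by shared regions, which by itself favours shared peaks in it.

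**Figure D3:**
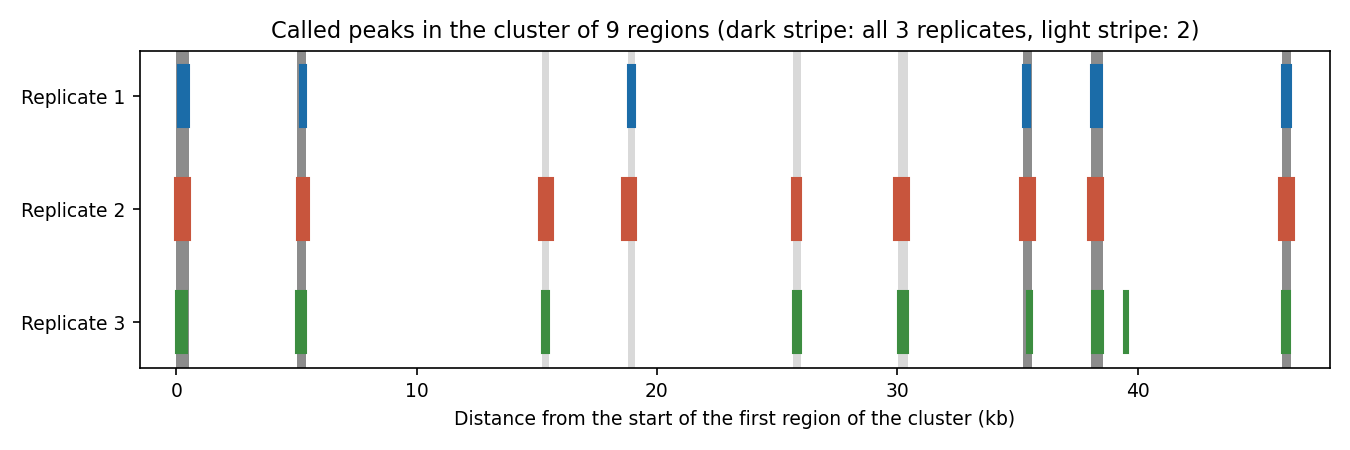
Called peaks of each replicate, drawn to scale as bars along the distance in kb from the start of the first region of the cluster. Dark stripes are the 5 regions of all 3 replicates and light stripes the 4 regions of 2 replicates; the narrow replicate 3 peak between the last 2 dark stripes overlaps no other list.

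The first region of the cluster, chr1:163412274-163412804, was its best scored in replicates 1 and 3. Its peak was at the percentile 75.6 in replicate 1, 92.7 in replicate 2 and 79.8 in replicate 3, at ranks 1654, 2742 and 1789 from the best of each list. It was also the highest of all window peaks in replicates 1 and 3. The next region, chr1:163417304-163417673, was lower in each replicate, at percentiles 29.3, 50.5 and 46.9. It took the last place of the 8 regions of all 3 replicates in replicates 1 and 2 and place 6 in replicate 3.

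The following 4 regions each lacked 1 replicate. The region chr1:163427474-163427773 was called in replicates 2 and 3, at percentiles 63.8 and 11.2. The region chr1:163431055-163431354 was called in replicates 1 and 2, at 33.6 and 72.2. The next pair was again of replicates 2 and 3. At chr1:163437924-163438253 the percentiles were 20.4 and 9.59, the lowest mean of the 15 regions. At chr1:163442324-163442723 they were 65.7 and 52.2. These 4 regions lie side by side in the middle of the cluster.

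The last 3 regions of the cluster were called in all 3 replicates. At chr1:163447505-163447873 the percentiles were 56.2, 83.2 and 24.9 in replicates 1, 2 and 3. At chr1:163450355-163450823 they were 49.9, 81.9 and 61.2. At chr1:163458274-163458654, the right end of the cluster, they were 35.9, 95.4 and 60.3. Of the 8 regions of all 3 replicates it took place 7 in replicate 1 and place 4 in replicate 2, so the lists did not put the regions in 1 common order.

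**Figure D4:**
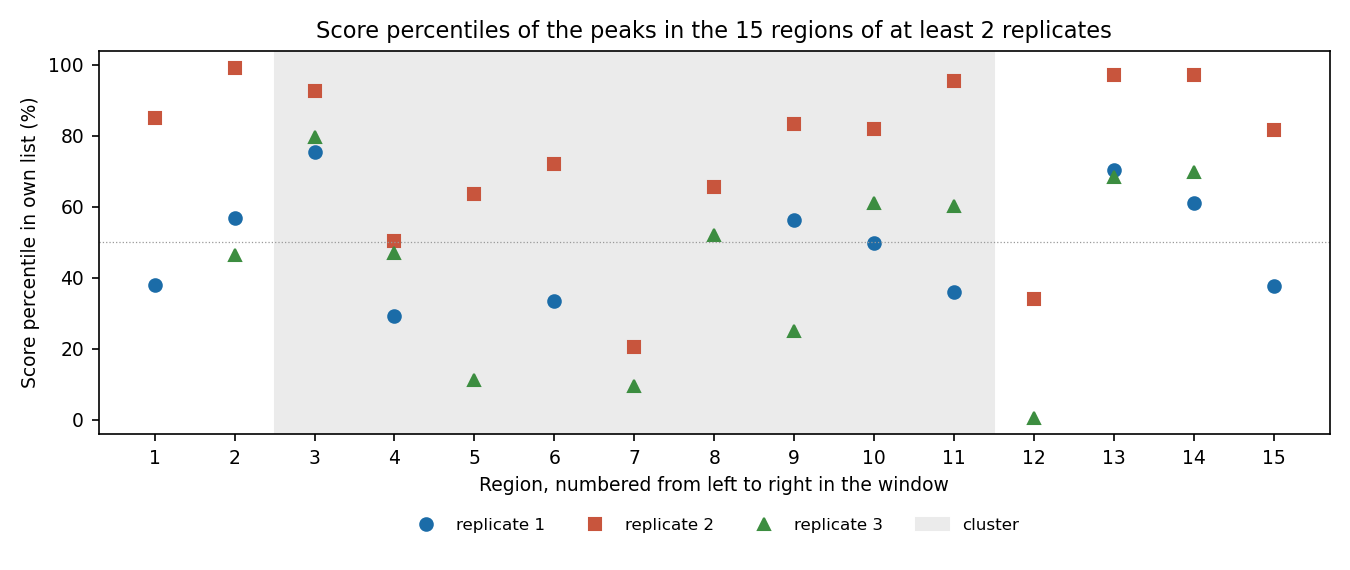
Score percentile in its own list (%) of each peak in the 15 regions of at least 2 replicates, numbered from left to right along the window, with 1 symbol per replicate; a missing symbol means that no peak was called. The replicate 2 square is the highest symbol in all 15 regions. Shared peaks of replicate 2 also have the highest median percentile over the whole lists, 83.4 against 51.3 and 51.4 in replicates 1 and 3. Region 3, the left end of the cluster (grey band), has all its symbols above 75%.

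Of the 6 regions outside the cluster, 3 were called in all 3 replicates. The region chr1:163336605-163337123 had the best-scored replicate 2 peak of the window, with a score of 958.844 that 549 peaks of that list share, at percentile 99.1. In replicates 1 and 3 the same region was only at percentiles 56.9 and 46.4. The regions chr1:163697355-163697873 and chr1:163723405-163723723 lay on the far side of the cluster. The first was at percentiles 70.5, 97.1 and 68.3 in replicates 1, 2 and 3, and the other at 61.0, 97.1 and 69.8. Among the 8 regions they took places 2 and 3 in replicate 1 and places 3 and 2 in replicates 2 and 3.

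The remaining 3 regions had peaks of 2 replicates. At the left, chr1:163281205-163281454 was called in replicates 1 and 2, at percentiles 38.0 and 85.1. At the right, chr1:163789755-163789854 was called in the same replicates, at 37.6 and 81.6, and its replicate 1 peak of 100 bp was the narrowest of the window. The region chr1:163675074-163675323 was called in replicates 2 and 3, at 34.0 and 0.654, and had the lowest percentile of any window peak. In all 15 regions the replicate 2 peak had a higher percentile than the others, in a list of which 25.7% of peaks overlap another. Over the whole lists, shared peaks also had their highest median percentile in replicate 2, 83.4 against 51.3 and 51.4 in replicates 1 and 3. The share of all regions with this order was not computed.

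Between the cluster and this last region, from 163458655 to 163675073, no region of at least 2 replicates was found over 216 kb. Replicates 1 and 3 had no peak in this stretch. Empty stretches are common in these lists, as 2307 of the 4414 windows of 600 kb held no replicate 1 peak and 2087 no replicate 3 peak. Replicate 2 had 5 peaks in it, with percentiles from 12.8 to 74.0. They overlap no other list by definition, since shared peaks would have formed a region. In the whole window replicate 2 had 20 peaks that overlapped no other list, and 10 of them scored above the list's median. The best of them, at chr1:163512554-163513153, ranked 9685.5 of 37307, tied with 1 other peak. The centres of these 20 peaks lay 3.05 to 91.1 kb from the nearest region, with a median of 22.6 kb, and 9 lay within 12.5 kb of one. Their median percentile was 52.1, against 38.8 for the unshared peaks of the whole list. How many unshared peaks of the whole list scored above its median, and how near they lay to a region, was not computed. The window was chosen with the peak positions known, so these counts and distances are a description.

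Replicates 1 and 3 had 1 unshared peak each, or 8.33% and 7.69% of their window peaks, near the 5.68% and 6.84% of their whole lists. That of replicate 1, at chr1:163767755-163768104, had the lowest percentile of its window peaks, 17.3. That of replicate 3, at chr1:163451724-163451873 inside the cluster, was 150 bp wide and at percentile 1.11. The replicate 3 peak lay near the low end of its list, and that of replicate 1 ranked 5606 of 6777.

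The borders of the window cut close to a further region. A region of all 3 replicates at chr1:163198224-163198654 had its centre 1.56 kb outside the left border and was not counted. Its peaks were at percentiles 83.4, 94.8 and 72.1 in replicates 1, 2 and 3, above the window's median in each. The first region inside this border was 81.3 kb from it. At the right, the last region inside was 10.2 kb from the border, and the first outside, at chr1:163872274-163872523, was 72.4 kb beyond it and was called in replicates 2 and 3. The first replicate 1 peak beyond the right border was 695 kb away.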

How the data were processed

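Each deposited list gives the position and score of the peaks called in 1 replicate, in build mm9, per the submitters' processing notes, and the names have the form that the caller MACS writes. Not given in the sources used here are the aligner, the version and threshold of the caller and how input reads of other studies entered, and read depth is unknown. Scores deposited by the authors were used only as ranks within a list. The authors' table of stretches covered by at least 2 replicates was rebuilt from the lists. All 31 of its intervals in the window had the same borders, 21 carried matching replicate names, and 31 did when replicates 2 and 3 were exchanged, so replicates here follow the lists. Touching intervals were joined into regions.

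An overlap of 1 bp made peaks of different lists shared. Shares carry 95% Wilson intervals. With 1 group and members chosen by position, no test was made. Chromosome lengths of mm9 came from GenomeInfoDb 1.38.1, and the rest was computed with matplotlib 3.10.9, scipy 1.17.1, pandas 2.3.3 and numpy 2.4.6 under Python 3.11.15. The interval code was tested on simulated data. By rule, Tnfsf4, Tnfsf18 and Fasl are named, every region of the window is described, and the best-scored unshared peak of each replicate is given. The window and these lists were chosen with earlier results of these data known. Alternatives were other overlap rules, shorter lists, other neighbour distances, merged peaks and leaving out each replicate.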

Additional observations from a re-analysis of the deposited data

How the results depend on the processing

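Without each replicate in turn, the mean number of window peaks was 12.5 to 24, the regions common to the other replicates numbered 8 to 12 and the cluster 3 to 8. The peak and region counts were lowest without replicate 2. The largest group in the cluster was 3 both without replicate 2 and without replicate 3, where 5 and 6 regions were left in its span with 1 and 2 spacings over 12.5 kb, and 8 without replicate 1. Limiting each list to its higher-scored 50% left 11.3 peaks on average and 8 regions, since these lists are shorter. Limiting it to its 6777 best-scored peaks left 9.67 and 9, with 12, 8 and 9 window peaks in replicates 1, 2 and 3. That limit shortens the lists of replicates 2 and 3 only, as the replicate 1 list holds 6777 peaks. Instead of 9, the cluster held 2 regions at a neighbour distance of 5 kb and 3 when limited to regions of all 3 replicates, again from the stricter rules. Over all alternatives the mean relative density ran from 5.33 to 7.17, the mean share of overlapping peaks from 61.5% to 88.0% and the mean of the median percentiles from 45.4 to 60.4. Leaving out a replicate can move a mean of 3 only in part, so these ranges are values and no measure of stability. No paired analysis was possible because the 3 samples form 1 group. Counts of regions near other TNF family genes and their receptors were planned and not run, as no mm9 annotation was used. With depth unknown, the absence of a call does not show that a replicate lacked binding.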

Other observations

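The lists hold only part of the peaks that their caller numbered, and the numbers follow genome position in all 3 lists. The numbers were counted from the first to the last window peak of each list. Of these, 2 of 14 were absent in replicate 1 (14.3%), 8 of 43 in replicate 2 (18.6%) and 1 of 14 in replicate 3 (7.14%). Over the whole lists 39.1%, 19.7% and 38.8% were absent. The end numbers of such a count are present by definition, and absent peaks nearer the borders are missed, so the shares for the window can be too low. In replicate 3 the count covers only 163336624 to 163723723. The absent numbers of replicates 1 and 3 belong to stretches that also hold regions which those replicates lacked. In replicate 3 the absent number belongs between 163427773 and 163437924, a stretch that holds the region of replicates 1 and 2 at chr1:163431055-163431354. The regions chr1:163281205-163281454 and chr1:163789755-163789854 also lack replicate 3. They lie outside its first and last window peaks, so its numbers were not checked there. In replicate 1, 1 absent number belongs between 163431354 and 163447505, a stretch of 16.2 kb that holds both neighbouring regions of replicates 2 and 3, at chr1:163437924-163438253 and chr1:163442324-163442723. The other belongs between 163458654 and 163697355, a stretch of 239 kb in which the region of replicates 2 and 3 at chr1:163675074-163675323 lies. The region of replicates 2 and 3 at chr1:163427474-163427773 also lacks replicate 1, and no number is absent between the replicate 1 peaks on either side of it. Whether the absent peaks lay in these regions was not tested, as their positions are not in the files analysed. None of the 8 absent numbers of replicate 2 falls in a stretch with a region that replicate 2 lacks, since it has a peak in all 15.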
